A study of Mus musculus with 9 samples.

Results

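The folding machinery of the endoplasmic reticulum (ER) was followed across the conversion of 3T3-L1 cells, a mouse preadipocyte line, into adipocytes with and without lysine. It was represented by 34 genes for ER chaperones, disulfide enzymes, stress sensors and ER-associated degradation factors, of 54532 genes in the tables. They were named as a list, with earlier results of these data known, and matched by gene symbol. RNA was measured in 9 libraries, 3 in each of 3 groups. Undifferentiated cells were kept for 3 days at confluence and received no differentiation medium. Differentiated cells were then kept for 3 days in adipogenic medium with 800 μM lysine. Lysfree cells were kept for 3 days in the same adipogenic medium with 0 μM lysine added, which by the study's methods still carried traces of lysine. The medium of both of these groups held 10 μg/mL insulin, 1 μM rosiglitazone, 1 μM dexamethasone and the phosphodiesterase inhibitor IBMX at 0.5 mM. Undifferentiated cells therefore differed from Lysfree cells in the hormones as well as in lysine. By the study's methods, the medium before differentiation also had another base medium and another serum (BCS, not FBS). The 3 days in adipogenic medium came after it, so serum, base medium and time also differed between Undifferentiated and both other groups. Only Lysfree against Differentiated changed lysine alone. All cells were of a single line, and nothing in the labels says that the 3 libraries of a group came from separate cultures, so p values measure the spread between these libraries, which may be technical.

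Secreted and membrane proteins fold in the ER with the help of chaperones such as BiP, the product of Hspa5, and of disulfide isomerases. When unfolded protein accumulates, IRE1 (Ern1), PERK (Eif2ak3) and ATF6 start the unfolded protein response. IRE1 splices the Xbp1 transcript, ATF6 is cut in the Golgi by the proteases S1P (Mbtps1) and S2P (Mbtps2), and PERK phosphorylates eIF2α and so raises translation of ATF4. Lack of an amino acid reaches ATF4 by another eIF2α kinase, GCN2, which belongs to the integrated stress response and not to the ER. Adipocytes secrete large amounts of protein such as adiponectin, and Xbp1 is known for a role in their differentiation.

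Many of these genes are known for a shared promoter motif, the ER stress element, a CCAAT box and the letters CCACG at a fixed distance. RefSeq promoter windows (build GRCm38.p6, 250 bases before to 50 after the gene start) were found for 30 of the 34 genes, Ero1l under its other symbol Ero1a. The promoters of Hyou1, Manf, Atf6 and Derl1 were not analysed here. On both strands, the ER stress element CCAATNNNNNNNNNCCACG was found in 39 of 32851 promoters of the table, which is 0.119%, and in the promoters of 9 of the 30 genes: Hspa5, Hsp90b1, Calr, Canx, Dnajc3, Creld2, Pdia6, Syvn1 and Derl3. ER stress element II, which is ATTGG and CCACG with 1 base between them, was in 0.0365% of promoters and in those of Dnajb11 and Herpud1. The ATF4 half-site core TGATGNAA was in 3.97% of promoters and, among these genes, in that of Herpud1 alone. The UPR element TGACGTGG, whose last letters are the reverse complement of CCACG, was in 0.676% of promoters and in 0 of the 30. Among these genes no match of one motif overlapped a match of another. A match is a run of letters, and whether a factor binds it was not measured.

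The 250 bases before the start of 3 genes are printed to show the motifs in place, 5′ to 3′ on the gene's own strand. They are in lower case, with each match in capitals except the spacer of the ER stress element. Hspa5 holds 1 match, Hsp90b1 holds 2 on opposite strands, and Herpud1 holds the ATF4 core, read on the other strand, before an ER stress element II.
Hspa5 (chr2:34771840-34772089, plus strand): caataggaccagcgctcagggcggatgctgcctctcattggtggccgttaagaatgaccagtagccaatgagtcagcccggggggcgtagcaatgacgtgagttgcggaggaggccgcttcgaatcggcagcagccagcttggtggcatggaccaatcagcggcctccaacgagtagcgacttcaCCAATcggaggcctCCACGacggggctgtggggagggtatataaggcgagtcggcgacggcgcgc
Hsp90b1 (chr10:86705445-86705694, minus strand): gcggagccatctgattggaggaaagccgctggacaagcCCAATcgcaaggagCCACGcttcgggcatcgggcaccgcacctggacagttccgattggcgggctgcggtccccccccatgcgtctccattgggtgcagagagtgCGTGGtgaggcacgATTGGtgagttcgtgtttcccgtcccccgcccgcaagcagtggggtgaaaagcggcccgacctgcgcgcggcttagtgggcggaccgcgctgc
Herpud1 (chr8:94386179-94386428, plus strand): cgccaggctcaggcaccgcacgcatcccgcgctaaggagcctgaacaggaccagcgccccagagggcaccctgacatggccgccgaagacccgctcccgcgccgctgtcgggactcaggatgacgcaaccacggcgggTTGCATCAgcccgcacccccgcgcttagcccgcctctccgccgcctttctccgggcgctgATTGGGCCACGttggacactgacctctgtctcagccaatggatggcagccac

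The other matches are given alone, as they read on the gene's strand, so that the spacer can be compared. Where CGTGG comes first, the element lies on the opposite strand.
Calr (chr8:84847075-84847093): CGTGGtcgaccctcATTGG
Canx (chr11:50325800-50325818): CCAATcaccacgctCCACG
Dnajc3 (chr14:118937827-118937845): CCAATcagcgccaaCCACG
Creld2 (chr15:88819520-88819538): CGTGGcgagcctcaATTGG
Pdia6 (chr12:17266491-17266509): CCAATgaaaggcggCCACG
Syvn1 (chr19:6046532-6046550): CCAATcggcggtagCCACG
Derl3 (chr10:75893242-75893260): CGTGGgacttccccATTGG
Dnajb11, element II (chr16:22857852-22857862): ATTGGCCCACG

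In these genes the 9 bases between the capitals differed from gene to gene, and CGTGG came first in Calr, Creld2 and Derl3.

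**Figure D1:**
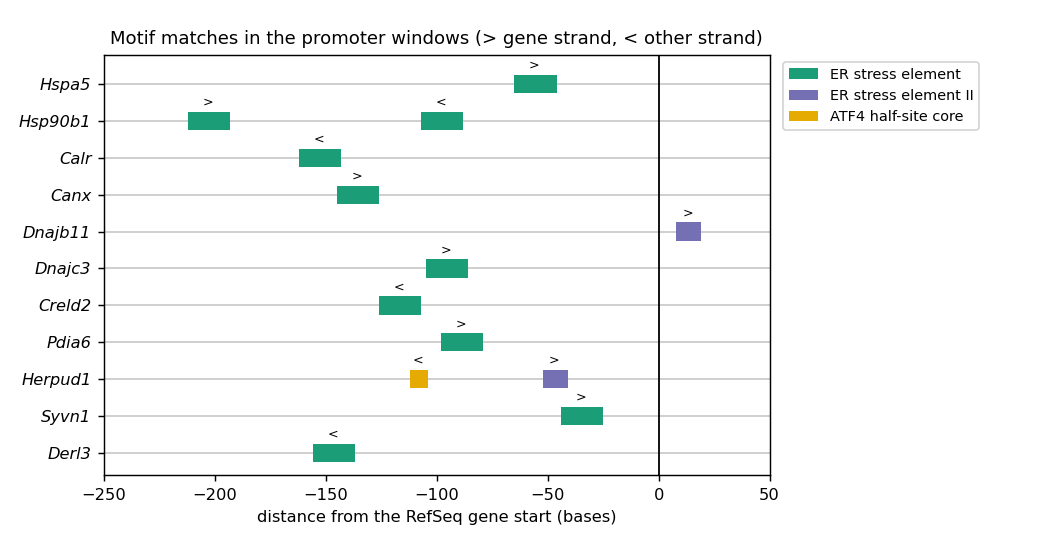
Position of each motif match in the promoter windows of 11 genes, in bases from the RefSeq gene start, with the strand marked by an arrowhead. The ER stress elements lie between base -212 in Hsp90b1 and base -26 in Syvn1, and the element II of Dnajb11 lies after the start, at bases 8 to 18.

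The deposited counts summed to between 15880144 and 21806693 per library. Levels below are the deposited FPKM, counts scaled by gene length and library depth, which allow genes to be compared with each other. Differences are log2 fold changes with their standard error (SE) from edgeR's quasi-likelihood test on the counts, and adjusted p values are by Benjamini-Hochberg over all genes tested. A gene is said to have risen or fallen where its adjusted p was under 0.05, and is called a DEG where it also changed by at least 2-fold. Lysfree 1 stood apart from Lysfree 2 and 3: over genes, the chi-square per degree of freedom was 39.6 and 40.7 against them and 2.67 between those 2 libraries. Relative to Lysfree 2 and 3, its short genes were lower and its long genes higher, with a median log2 ratio of -0.21 in the shortest of 4 equal length classes and 0.11 in the longest. Among the 34 genes, 7 deviated by more than 0.5, Derl3 and Os9 by the most, and calls that change without Lysfree 1 are given with the gene. The adipocyte markers moved with the groups: the summed FPKM of 8 markers (Adipoq, Fabp4, Plin1 and others) ran from 314 to 395 in Undifferentiated, from 6890 to 7245 in Differentiated and from 292 to 408 in Lysfree. All 8 rose in Differentiated and all 8 were lower in Lysfree than in Differentiated. Between Lysfree and Undifferentiated the sums were similar but the markers were not: 2 were higher and 5 lower in Lysfree. Adipoq was at 3.96, 3.61 and 4.96 FPKM in Lysfree against 47.3, 74.1 and 52.0 in Undifferentiated libraries, and Cd36 at 97.1, 57.6 and 63.5 against 16.1, 17.6 and 16.0. Of 7 fibroblast and preadipocyte markers, whose sum ran from 5325 to 5715, from 1349 to 1358 and from 1947 to 2029, all 7 fell in Differentiated. Macrophage, endothelial and epithelial markers summed to at most 5.01, 0.272 and 1.72 FPKM in any library, with Adgre1, Itgam and Epcam at 0 reads in all 9. In bulk RNA, fewer cells of a type and less RNA per cell cannot be told apart, and the part of the cells' differentiation in the results below was not tested.

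The ER genes were among the more abundant transcripts. In Undifferentiated cells the mean level was 100 FPKM or more for 5 of them, P4hb, Calr, Pdia3, Hspa5 and Hsp90b1, and below 10 for 7. In Differentiated cells 10 of the 34 reached 100 FPKM. Per length, the highest level was that of P4hb in Undifferentiated and in Differentiated cells, and that of Hspa5 in Lysfree cells. Derl3 stayed below 1 FPKM in all 9 libraries. In the annotation, 10 of the 34 genes overlap another gene that has reads (Hsp90b1, Dnajb11, Manf, Pdia3, Pdia6, Eif2ak3, Mbtps2, Herpud1, Syvn1 and Derl2), and as the strand setting of the counting is not given in the sources used here, reads of the overlap cannot be told apart.

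**Figure D2:**
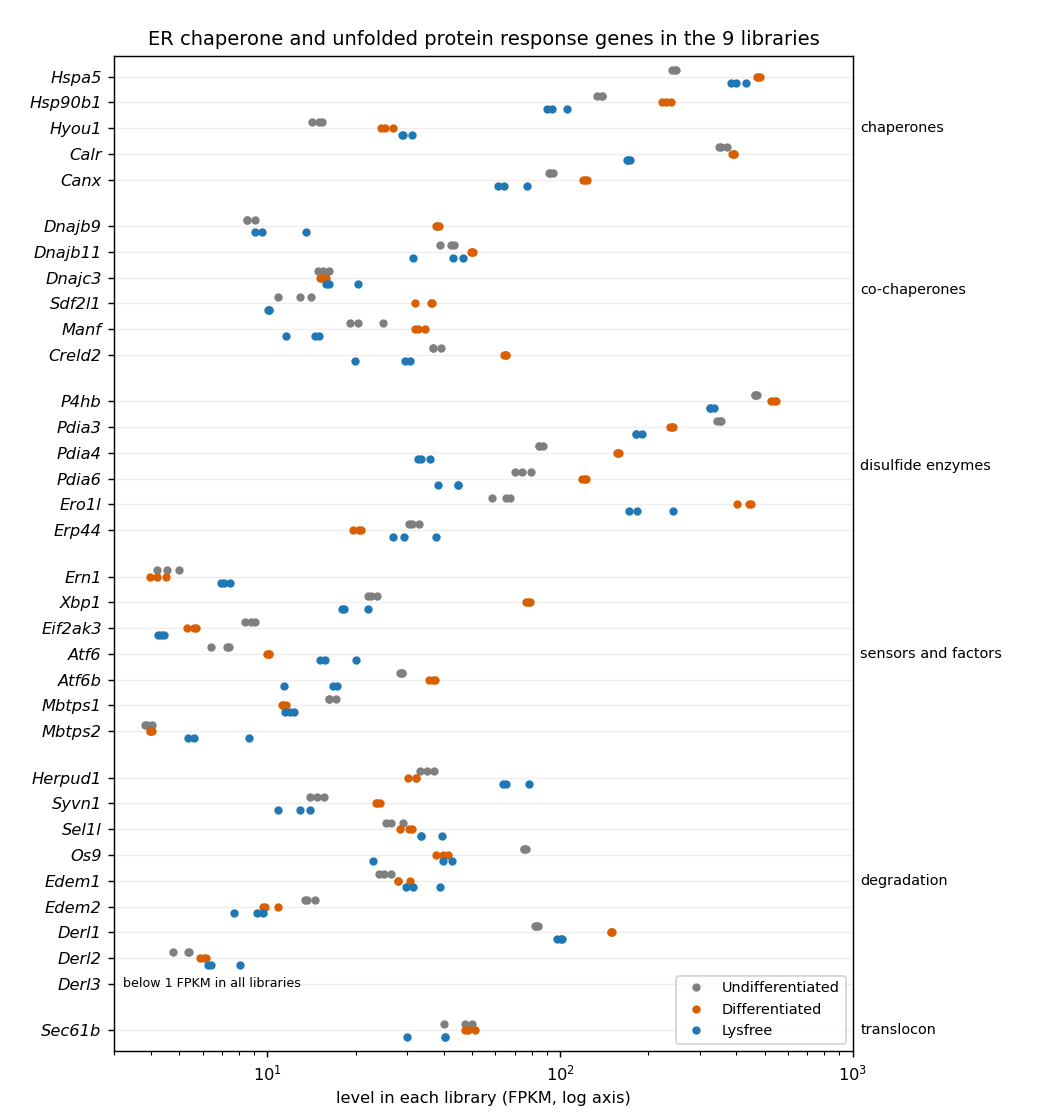
Level of 33 genes in each library in FPKM on a log axis, with 3 points per group; Derl3, below 1 FPKM in all libraries, is named but not drawn. Xbp1, Dnajb9, Sdf2l1 and Pdia4 show the widest gaps between Differentiated and Lysfree points, and Herpud1 and Atf6 have their Lysfree points on the right.

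In adipogenic medium with lysine most of the machinery was raised. In Differentiated vs Undifferentiated, 21 of the 34 genes rose and 7 fell, where 23.0% of all 24402 genes tested rose and 23.2% fell. Of genes at least as abundant as the second lowest of the 34, 43.9% rose and 39.1% fell. The 4 DEGs, Ero1l, Dnajb9, Xbp1 and Sdf2l1, were all higher (10.4% of all genes were DEGs in that direction and 11.4% in the other). The median log2 fold change was 0.23 over the 34 genes and 0.02 over all genes tested. In Lysfree vs Differentiated, where lysine was the difference, 9 rose and 18 fell, against 19.7% and 18.8% of all 24130 genes tested and 39.6% and 30.0% of genes of that abundance. Of 13 DEGs, 11 were lower and 2 were higher (10.5% and 8.14% of all genes), and the median was -0.31 against -0.06. Without Lysfree 1, 9 rose, 20 fell and 13 were DEGs. In Lysfree vs Undifferentiated, 13 rose and 14 fell, against 18.0% and 17.1% of all 23994 genes tested and 38.2% and 26.2% of genes of that abundance. Of 8 DEGs, 5 were higher and 3 lower (5.52% and 8.76% of all genes), with a median of -0.18 against -0.02. Without Lysfree 1, 12 rose, 15 fell and 5 were DEGs. The libraries of the groups did not overlap for 28 of the 34 genes in Differentiated vs Undifferentiated (50.9% of all genes tested), for 29 in Lysfree vs Undifferentiated (43.5%) and for 30 in Lysfree vs Differentiated (46.6%).

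The 3 comparisons share libraries, so they are read side by side and not as separate evidence. All but 1 of the 34 genes, Dnajc3, passed in at least 1 comparison. The share of all genes that did so, or that had an order named below, was not computed. The counts of orders therefore describe the 34 genes alone. The most common order was a peak with lysine, with 14 genes higher in Differentiated than in both other groups. In 8 of these, Hsp90b1, Canx, Manf, Creld2, P4hb, Pdia4, Pdia6 and Atf6b, Lysfree was also below Undifferentiated. In 3, Dnajb9, Ero1l and Derl1, Lysfree lay between the other groups, and in 3, Sdf2l1, Xbp1 and Syvn1, Lysfree and Undifferentiated did not pass the test. Lysfree was lower than both other groups for 11 genes. It was higher than both for 8 others: Hyou1, Ern1, Atf6, Mbtps2, Herpud1, Sel1l, Edem1 and Derl3. These 8 hold 2 of the stress sensors (Ern1 and Atf6), 4 degradation factors, the protease gene Mbtps2 and Hyou1. The 11 hold no degradation factor but 4 disulfide enzymes, and they hold the sensor gene Eif2ak3 and Atf6b. Some of these orders rest on calls that were lost under some alternatives, as given below with the genes. These are Hyou1, Sel1l, Edem1, Derl3 and Eif2ak3 against Differentiated, and Derl3 and Creld2 against Undifferentiated.

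**Figure D3:**
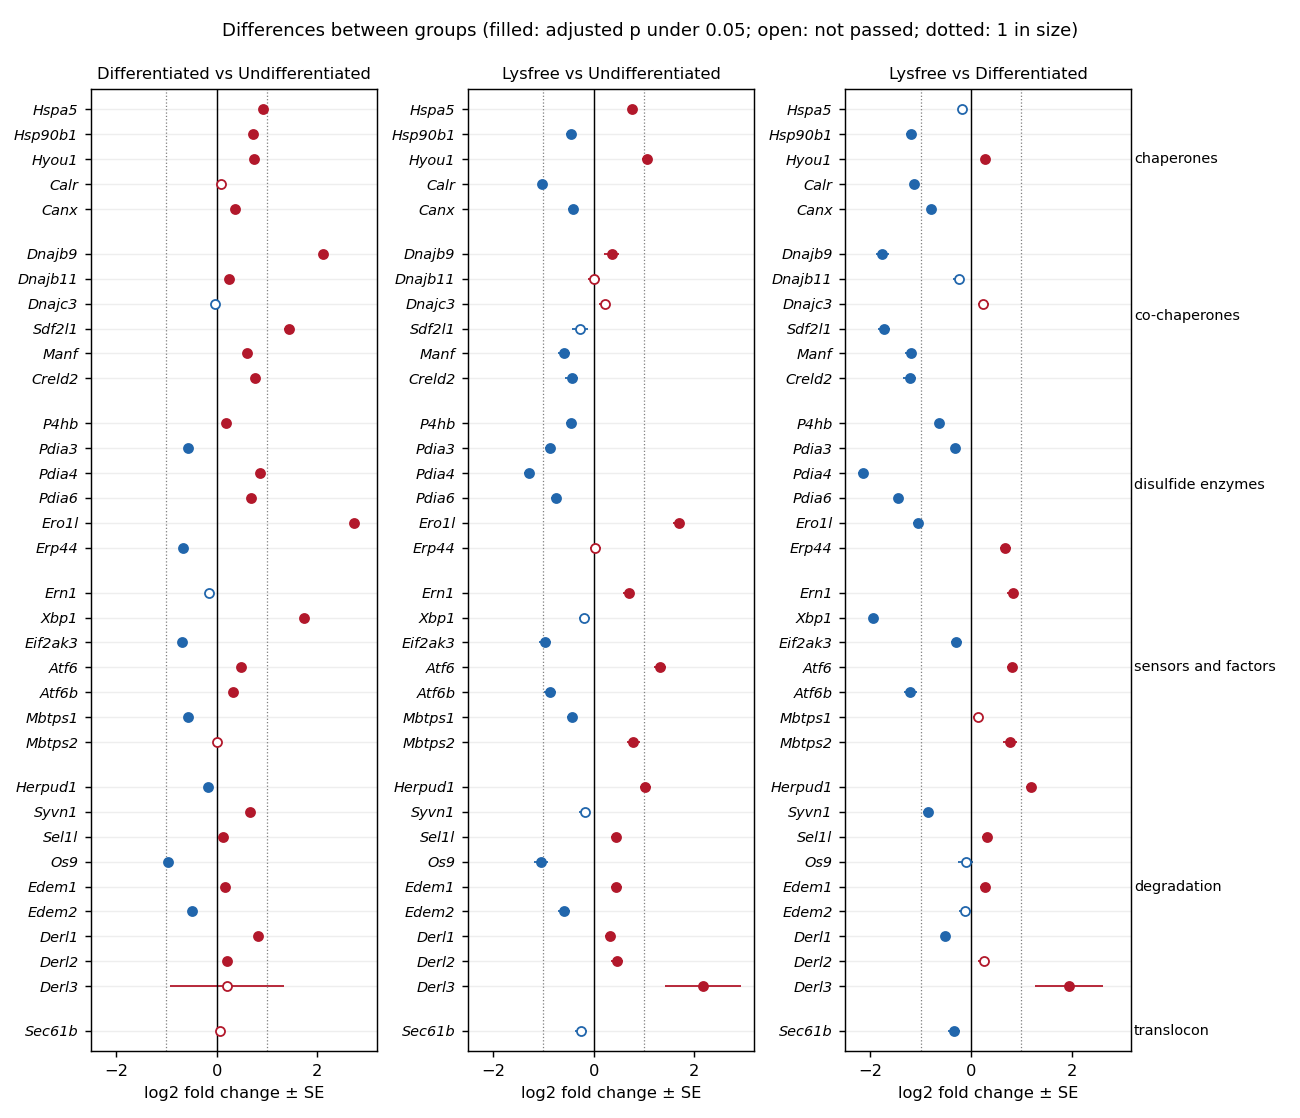
Log2 fold change ± SE of the 34 genes in the 3 comparisons, from 6 libraries each, with filled points for an adjusted p under 0.05, red above 0 and blue below. In Lysfree vs Differentiated the disulfide enzymes other than Erp44 lie left of 0, while Herpud1, Atf6 and Ern1 lie right of it.

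The classes differed in their summed level. The 5 chaperones summed to 845, 848 and 855 FPKM in Undifferentiated, 1261, 1241 and 1233 in Differentiated and 815, 759 and 735 in Lysfree libraries. The 6 disulfide enzymes summed to 1071 ± 9.71 (SD, n = 3), 1507 ± 17.1 and 820.5 ± 52.6 FPKM. On this scale, in both classes the Differentiated libraries were above all others and the Lysfree libraries below all Undifferentiated ones. A percent of all counts is not corrected for length and lacks the constant that the deposited FPKM carry for each library. This constant ran from 0.932 to 1.037, highest in the Differentiated and lowest in the Lysfree libraries. The parts of length and of the constant in the differences between the scales were not tested. In percent of counts Differentiated was again the highest in both classes. The chaperones, however, took 0.3490%, 0.3295% and 0.3191% in the Lysfree libraries against 0.3201%, 0.3185% and 0.3204% in the Undifferentiated ones. The place of Lysfree below Undifferentiated therefore held for the chaperones in FPKM and not in percent of counts. The 9 degradation factors, beside the 2 classes above, summed to 283, 278 and 277, to 322, 321 and 316 and to 308, 299.6 and 297 FPKM, with Lysfree between the other groups. In percent of counts this order turned, with 0.1379%, 0.1316% and 0.1304% in the Lysfree libraries above 0.1275%, 0.1290% and 0.1252% in the Differentiated ones. The sums of these 2 classes rest mostly on their most abundant genes, Hspa5 and Calr among the chaperones and P4hb, Pdia3 and, in adipogenic medium, Ero1l among the disulfide enzymes. Among the degradation factors Derl1 was the highest in every group but did not make up most of the sum.

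**Figure D4:**
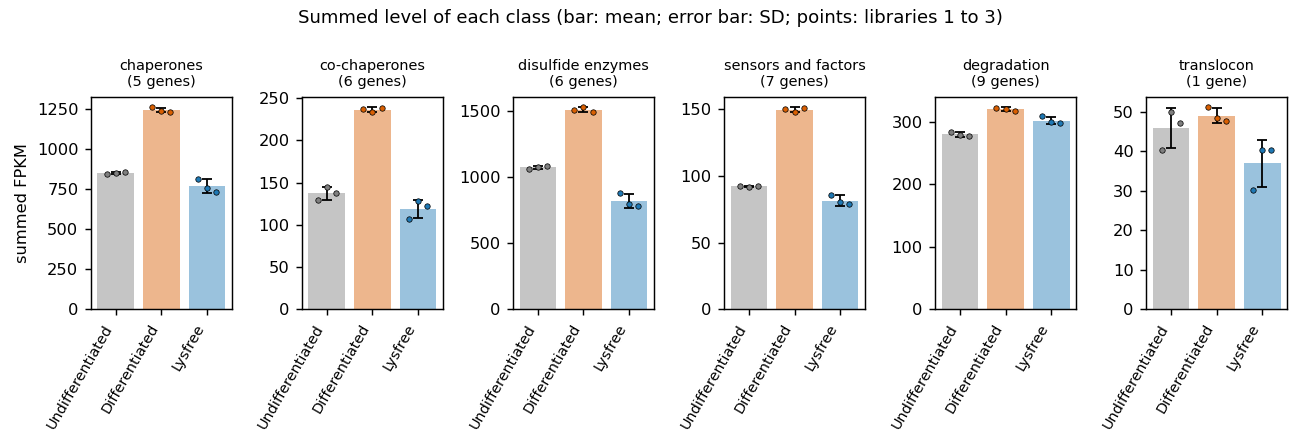
Summed FPKM of each functional class in the 9 libraries, with the group mean as a bar, its SD (n = 3) and the libraries as points; each panel has its own axis from 0. On this scale the Differentiated bar is the highest in every class, and the degradation class has the smallest relative difference between groups.

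Of the chaperones, BiP and its nucleotide exchange factor stayed high without lysine while the lectin chaperones and GRP94 fell. Hspa5 encodes BiP, the ER member of the HSP70 family and a repressor of the stress sensors. It was at 246, 249.6 and 242 FPKM in the Undifferentiated libraries, 484, 473 and 470.4 in the Differentiated and 432, 398 and 383 in the Lysfree ones. All libraries with adipogenic medium were above all without it, and the Lysfree libraries lay below the Differentiated ones without overlap. It rose 1.9-fold in Differentiated (log2 fold change 0.93, SE 0.045, adjusted p = 6.2e-93) and 1.7-fold in Lysfree (log2 fold change 0.76, SE 0.088, adjusted p = 9.7e-09). Lysfree vs Differentiated did not pass, at -0.17 (adjusted p = 0.068), but did without Lysfree 1, at -0.24 (adjusted p = 2.6e-15). Hyou1 encodes GRP170, which releases nucleotide from BiP. It was at 15.4, 14.2 and 15 FPKM in the Undifferentiated, 25.2, 26.8 and 24.4 in the Differentiated and 31.2, 29.2 and 28.9 in the Lysfree libraries, highest in every Lysfree library. It rose in Differentiated (log2 fold change 0.75, SE 0.057, adjusted p = 2.8e-39) and in Lysfree (log2 fold change 1.05, SE 0.10, adjusted p = 1.0e-10), where it was above Differentiated by 0.29 (adjusted p = 0.01). The last difference did not pass without Differentiated 1 or 3. Without Lysfree 1 the change from Undifferentiated was 0.99, under the 2-fold limit of a DEG.

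Hsp90b1, the ER HSP90 known as GRP94, went the other way in Lysfree. It was at 139, 138 and 134 FPKM in Undifferentiated, 239.6, 231 and 224 in Differentiated and 106, 93.5 and 90.01 in Lysfree libraries. Every Lysfree library was below every other one, at a 2.3-fold lower level than Differentiated (log2 fold change -1.20, SE 0.083, adjusted p = 1.4e-10) and below Undifferentiated too (log2 fold change -0.46, SE 0.095, adjusted p = 1.5e-04). The promoter printed above for Hsp90b1 holds 2 ER stress elements and that of Hspa5 holds 1. Calr encodes calreticulin, the soluble lectin chaperone that binds glucose-capped glycoproteins and calcium. It was at 350.0, 355 and 372 FPKM in the Undifferentiated, 393, 386 and 393 in the Differentiated and 169.8, 173 and 171 in the Lysfree libraries. Every Lysfree library was far below every other library, with a 2.03-fold lower level than Undifferentiated (log2 fold change -1.02, SE 0.091, adjusted p = 3.6e-11) and 2.18-fold lower than Differentiated (log2 fold change -1.12, SE 0.075, adjusted p = 8.2e-11). The difference between Differentiated and Undifferentiated was 0.095 (adjusted p = 0.082), and it passed without Undifferentiated 2 or 3. Canx, the membrane lectin calnexin, was at 92.6 ± 1.51, 122 ± 2.13 and 67.5 ± 8.18 FPKM (SD, n = 3 each). It rose by 0.37 (SE 0.050) in Differentiated and was lower by 0.79 in Lysfree than there (adjusted p = 2.5e-07).

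**Figure D5:**
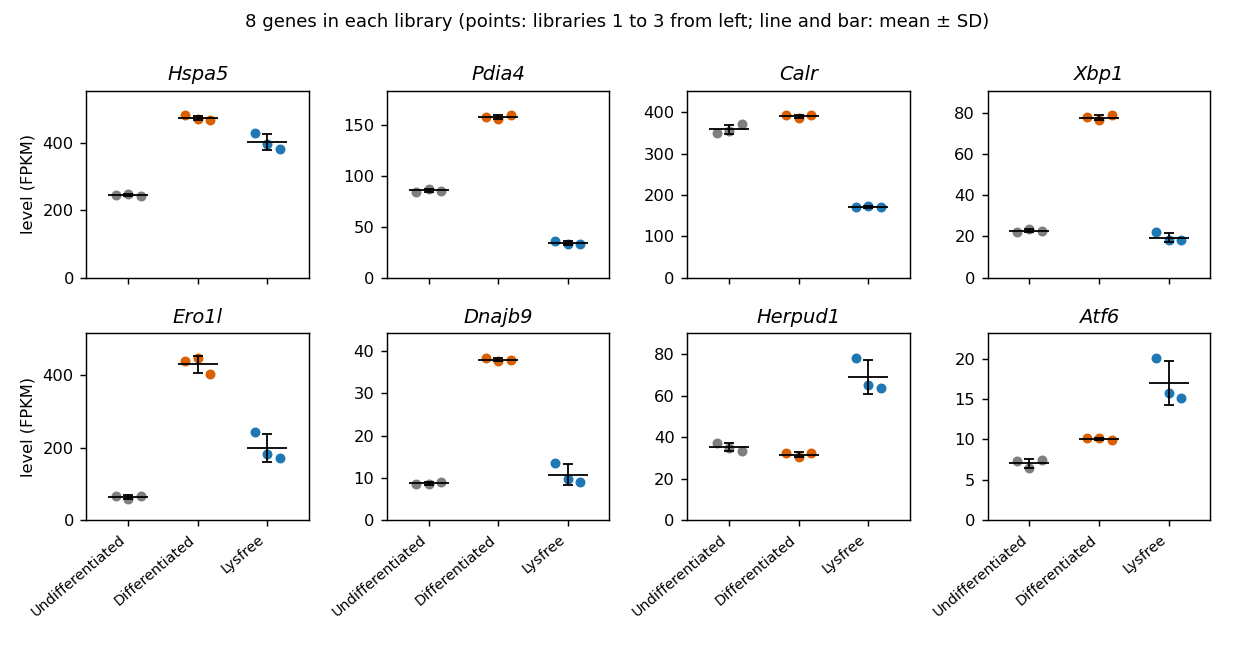
Level in FPKM of 8 genes in each library, with the group mean ± SD (n = 3), axes from 0. Pdia4, Calr and Xbp1 are low in Lysfree, Hspa5 stays near its Differentiated level, and Herpud1 and Atf6 are highest in Lysfree.

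Among the BiP co-chaperones and secreted folding factors, 5 of 6 rose in Differentiated and 4 fell in Lysfree vs Differentiated, all 4 as DEGs. Of genes of the abundance given above, 43.9% rose in the former, and 30.0% fell and 11.4% were lower DEGs in the latter. Dnajb9 encodes ERdj4, a J-domain partner of BiP and a known target of XBP1. It was at 8.52, 8.5 and 9.04 FPKM in Undifferentiated, 38.4, 37.7 and 37.9 in Differentiated and 13.6, 9.61 and 9.1 in Lysfree libraries. The Differentiated libraries stood far above the rest. The rise was 4.3-fold (log2 fold change 2.10, SE 0.074, adjusted p = 1.0e-177) and Lysfree was 3.39-fold lower (log2 fold change -1.76, SE 0.13, adjusted p = 2.3e-10). Its rise in Lysfree vs Undifferentiated did not pass without Lysfree 1 or any one of the Undifferentiated libraries: it was 0.35 (adjusted p = 0.049) with all 6 libraries and 0.13 (adjusted p = 0.36) without Lysfree 1. Sdf2l1, which keeps ERdj3 and BiP in complex, was also highest in Differentiated, at 10.8, 14.1 and 13 FPKM in the Undifferentiated, 36.2, 31.9 and 36.4 in the Differentiated and 10.1, 10.1 and 10.05 in the Lysfree libraries. It rose 2.71-fold and was 3.3-fold lower in Lysfree than in Differentiated (adjusted p = 2.9e-53 and 2.0e-10).

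Manf and Creld2 encode secreted ER stress proteins with disulfide-rich folds. Manf was at 19.2, 24.8 and 20.5 FPKM in the Undifferentiated, 32.8, 31.9 and 34.5 in the Differentiated and 11.6, 15 and 14.6 in the Lysfree libraries. Creld2 was at 36.8, 39.2 and 36.7 FPKM in the Undifferentiated, 65.2, 65.4 and 64.3 in the Differentiated and 19.9, 30.7 and 29.6 in the Lysfree libraries. Both were lowest in Lysfree, with log2 fold changes against Differentiated of -1.20 and -1.21 (adjusted p = 8.1e-09 and 1.3e-07). Lysfree 1 was the lowest library for both, and the smaller fall of Creld2 against Undifferentiated (-0.44, adjusted p = 0.0077) did not pass without Undifferentiated 3. Dnajb11, the J-domain protein ERdj3, rose slightly in Differentiated, from 39, 43.4 and 42.4 to 49.6, 50.5 and 50.1 FPKM (log2 fold change 0.24, SE 0.056, adjusted p = 6.0e-05). In Lysfree it was at 31.5, 46.5 and 42.9 FPKM, with Lysfree 1 the lowest of all 9 libraries, and neither comparison with Lysfree passed (adjusted p = 0.99 and 0.11; without Lysfree 1, 0.031 against Differentiated). Dnajc3, or p58IPK, a co-chaperone that also restrains eIF2α kinases, was at 15.5 ± 0.622, 15.4 ± 0.371 and 17.5 ± 2.54 FPKM, with overlap in every comparison and adjusted p from 0.068 to 0.66.

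Of genes of the abundance given above, 43.9% rose and 39.1% fell in Differentiated, and 30.0% were lower and 39.6% higher in Lysfree than there. Of the 6 disulfide enzymes, 4 rose and 2 fell in Differentiated, and 5 were lower and 1 was higher in Lysfree than in Differentiated. P4hb, the classical disulfide isomerase PDI and a subunit of prolyl 4-hydroxylase, was the most abundant, at 464, 463 and 469.5 FPKM in Undifferentiated, 525, 540.1 and 544 in Differentiated and 336, 325 and 324 in Lysfree libraries. It rose slightly in Differentiated (log2 fold change 0.18, SE 0.045, adjusted p = 2.0e-04) and was 1.56-fold lower in Lysfree than there (log2 fold change -0.64, SE 0.072, adjusted p = 2.0e-07). Pdia4, or ERp72, had the largest log2 fold change below 0 of the 34 genes, both against Differentiated and against Undifferentiated. It was at 84.5, 87.3 and 85 FPKM in the Undifferentiated, 158, 156 and 159.5 in the Differentiated and 35.8, 32.7 and 33.4 in the Lysfree libraries, so that the 3 groups were far apart and the libraries within a group close. It was 4.44-fold lower in Lysfree than in Differentiated (log2 fold change -2.15, SE 0.087, adjusted p = 2.6e-14) and 2.44-fold lower than in Undifferentiated (log2 fold change -1.29, SE 0.10, adjusted p = 1.1e-12). Pdia6, an isomerase that acts on IRE1 among other substrates, followed the same order at 69.9, 79.5 and 73.9 FPKM in the Undifferentiated, 122, 122 and 119 in the Differentiated and 38.2, 44.9 and 44.7 in the Lysfree libraries, 2.72-fold lower in Lysfree than in Differentiated (adjusted p = 2.9e-11). Its promoter has an ER stress element and that of Pdia4 has none of the 4 motifs.

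Pdia3 and Erp44 did not share this order. Pdia3, or ERp57, the isomerase that works with calnexin and calreticulin, fell already in Differentiated. It was at 345, 351 and 355 FPKM in Undifferentiated, 241, 238 and 244 in Differentiated and 190.0, 182 and 181 in Lysfree libraries, stepping down without overlap (log2 fold change -0.57, SE 0.047, adjusted p = 1.5e-32 in Differentiated and log2 fold change -0.88, SE 0.090, adjusted p = 7.8e-10 in Lysfree, both against Undifferentiated). Erp44, which retrieves adiponectin and other disulfide-linked oligomers from the early secretory pathway, was lowest in Differentiated. It was at 30.6, 32.9 and 31.2 FPKM in the Undifferentiated, 20.5, 19.6 and 20.8 in the Differentiated and 37.5, 29.3 and 26.8 in the Lysfree libraries, fell in Differentiated (log2 fold change -0.66, SE 0.063, adjusted p = 2.0e-25), and was 1.61-fold higher in Lysfree than there (adjusted p = 2.8e-05). Lysfree and Undifferentiated overlapped. Ero1l encodes ERO1α, the oxidase that recharges PDI, and had the largest rise of the 34 genes in Differentiated. It was at 67.3, 58.7 and 65.5 FPKM in Undifferentiated, 440.2, 449 and 403 in Differentiated and 243, 183 and 173 in Lysfree libraries. Its rise was 6.62-fold with lysine (log2 fold change 2.73, SE 0.048, adjusted p under the smallest number R can store) and 3.23-fold without (log2 fold change 1.69, SE 0.11, adjusted p = 1.6e-14), and Lysfree was 2.07-fold below Differentiated (adjusted p = 1.8e-08). Unlike the other disulfide enzymes that fell there, it thus stayed above Undifferentiated in every Lysfree library.

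The stress sensors and their factors did not move together. In Lysfree vs Differentiated, 3 of 7 rose and 3 fell, beside 39.6% and 30.0% of genes of the abundance given above. Xbp1, the transcript that IRE1 splices, was at 22, 23.7 and 22.6 FPKM in Undifferentiated, 77.7, 76.5 and 78.7 in Differentiated and 22, 18 and 18.2 in Lysfree libraries. The Differentiated libraries were more than 3 times as high as any other, with a rise of 3.34-fold (log2 fold change 1.74, SE 0.058, adjusted p = 9.2e-199) and a 3.83-fold lower level in Lysfree (log2 fold change -1.94, SE 0.10, adjusted p = 7.0e-13). Lysfree vs Undifferentiated was -0.19 (adjusted p = 0.21) and -0.31 without Lysfree 1 (adjusted p = 1.3e-04). Counts per gene do not separate spliced from unspliced Xbp1, so IRE1 activity was not measured. Ern1, the gene of IRE1 itself, was low and moved otherwise, at 4.55, 4.19 and 5.0 FPKM in the Undifferentiated, 4.51, 4.18 and 3.96 in the Differentiated and 7.13, 7.43 and 6.93 in the Lysfree libraries. It was 1.78-fold higher in Lysfree than in Differentiated (log2 fold change 0.83, SE 0.10, adjusted p = 1.1e-06) and 1.62-fold higher than in Undifferentiated (adjusted p = 5.3e-06). The enzyme and its substrate transcript therefore differed in opposite directions between Lysfree and Differentiated.

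The paralogues Atf6 and Atf6b both rose in Differentiated and went opposite ways in Lysfree. Atf6 encodes the membrane-bound factor whose freed part binds the ER stress element, and was at 7.29, 6.43 and 7.41 FPKM in Undifferentiated, 10.1, 10.2 and 9.95 in Differentiated and 20.1, 15.7 and 15.1 in Lysfree libraries. It rose 1.41-fold in Differentiated and 2.49-fold in Lysfree (log2 fold change 1.32, SE 0.11, adjusted p = 1.1e-11), and Lysfree was above Differentiated (log2 fold change 0.82, adjusted p = 1.1e-06). Atf6b, which encodes a weaker activator, was at 28.4, 28.8 and 28.9 FPKM in the Undifferentiated, 36.8, 35.7 and 37.3 in the Differentiated and 11.4, 17.3 and 16.7 in the Lysfree libraries. It was 2.31-fold lower in Lysfree than in Differentiated (log2 fold change -1.21, SE 0.13, adjusted p = 9.6e-08), and the fall was -1.06 without Lysfree 1, the lowest library. The proteases that cut both factors differed as well. Mbtps1 fell in both media, from 16.5 ± 0.576 to 11.4 ± 0.203 and 11.9 ± 0.403 FPKM (adjusted p = 3.6e-23 and 5.3e-04), with Differentiated and Lysfree overlapping. Mbtps2 was at 3.8, 3.89 and 4.04 FPKM in the Undifferentiated, 3.98, 4.02 and 3.98 in the Differentiated and 8.63, 5.36 and 5.61 in the Lysfree libraries and rose in Lysfree (log2 fold change 0.78, SE 0.13, adjusted p = 1.0e-05), by 0.51 without Lysfree 1, its highest library. Against Differentiated it was higher by 0.77 with and by 0.50 without Lysfree 1 (adjusted p = 1.0e-04 and 3.6e-12). Eif2ak3, the gene of PERK, stepped down from 9.1, 8.77 and 8.41 to 5.33, 5.69 and 5.6 and 4.21, 4.32 and 4.43 FPKM. It fell 1.61-fold in Differentiated and 1.96-fold in Lysfree (adjusted p = 1.6e-18 and 1.8e-08), and the difference between these groups (-0.30, adjusted p = 0.04) did not pass without any one of the Differentiated libraries or of Lysfree 2 and 3.

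In Lysfree vs Differentiated, 4 of the 9 degradation genes were higher and 2 were lower. Of genes of the abundance given above, 39.6% were higher and 30.0% lower. Herpud1 encodes HERP, a ubiquitin-like scaffold of the HRD1 ligase, and was the only degradation gene above 1 FPKM that was a DEG in Lysfree vs Differentiated. It was at 37, 35 and 33.2 FPKM in Undifferentiated, 32.3, 30.3 and 32.2 in Differentiated and 78.3, 65.4 and 63.6 in Lysfree libraries. Every Lysfree library was above every other one, while Differentiated was slightly below Undifferentiated (-0.18, adjusted p = 0.012, lost without Undifferentiated 1 or Differentiated 2). It was 2.29-fold higher than Differentiated (log2 fold change 1.19, SE 0.10, adjusted p = 1.8e-09) and 2.03-fold higher than Undifferentiated (log2 fold change 1.02, SE 0.10, adjusted p = 7.6e-10; 0.90 without Lysfree 1, under the limit of a DEG). Its promoter, printed above, was the only one of the 30 with the ATF4 core, which 3.97% of all promoters hold. A count of 1 in 30 is near that share, and a link of the core to the rise was not tested. Syvn1, which encodes the HRD1 ligase, had the opposite order, at 15.6, 14 and 14.7 FPKM in the Undifferentiated, 23.7, 23.4 and 24.2 in the Differentiated and 10.9, 13 and 14 in the Lysfree libraries, 1.8-fold lower in Lysfree than in Differentiated (log2 fold change -0.85, SE 0.10, adjusted p = 7.4e-07). Sel1l, the partner of HRD1, was at 26.9 ± 1.82, 29.9 ± 1.48 and 35.6 ± 3.52 FPKM, above both groups in Lysfree (adjusted p = 4.1e-04 and 0.0077), though not against Differentiated once Differentiated 3 was left out. The ligase, its scaffold and its partner thus did not move together.

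The lectins of glycoprotein disposal also differed. Os9, a lectin that hands trimmed glycoproteins to HRD1, fell from 75, 76.7 and 75.3 FPKM to 41.5, 39.8 and 37.6 in Differentiated and 23, 39.7 and 42.8 in Lysfree libraries. It fell 1.95-fold in Differentiated (log2 fold change -0.96, SE 0.057, adjusted p = 2.0e-63). In Lysfree, Lysfree 1 lay far below Lysfree 2 and 3, and the change from Undifferentiated was -1.06 with it and -0.85 without it (adjusted p = 1.3e-07 and 3.9e-40). Edem1, which speeds the disposal of misfolded glycoproteins by trimming mannose, was at 25.1, 24 and 26.4 FPKM in the Undifferentiated, 27.9, 30.6 and 27.9 in the Differentiated and 38.8, 31.4 and 29.7 in the Lysfree libraries and rose in Differentiated and in Lysfree (adjusted p = 0.0058 and 6.7e-04), the first of which was lost without Differentiated 2 and in the fit of all 9 libraries. Against Differentiated its level in Lysfree was higher by 0.27 (adjusted p = 0.034) and by 0.13 without Lysfree 1, and this call was lost without any one of the Differentiated libraries. Its paralogue Edem2 fell in both, from 13.9 ± 0.573 to 10.1 ± 0.663 and 8.85 ± 1.02 FPKM (adjusted p = 1.3e-09 and 1.1e-04).

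The derlins are membrane proteins of the retrotranslocation channel. Derl1 was at 82.5, 83.8 and 82.2 FPKM in the Undifferentiated, 149.5, 149.6 and 150.4 in the Differentiated and 102, 100.4 and 97.8 in the Lysfree libraries, with Lysfree between the other groups and no overlap. It rose 1.78-fold in Differentiated and was 1.43-fold lower in Lysfree than there (log2 fold change -0.52, SE 0.079, adjusted p = 1.3e-05). Derl2 rose from 5.17 ± 0.339 to 6.04 ± 0.151 and 6.92 ± 1.0 FPKM (adjusted p = 0.017 and 0.0015), the first of which was lost without Undifferentiated 2, Differentiated 1 or Differentiated 2. Derl3, known from secretory organs, had 5, 1 and 1 reads in the Undifferentiated libraries, 2, 3 and 2 in the Differentiated and 5, 13 and 12 in the Lysfree ones. The Lysfree libraries held 30 reads in all against 7 in each of the others, a ratio of 4.23 to Differentiated with an exact 95% counting interval of 1.82 to 11.4, and of 4.78 to Undifferentiated with an interval of 2.06 to 12.9. Lysfree 1 had as many reads as Undifferentiated 1, and the adjusted p values of 0.026 and 0.023 were lost without any one of 5 and 4 of the 6 libraries, respectively. Sec61b, a subunit of the translocation channel through which proteins enter the ER, was at 40.2, 49.97 and 47.2 FPKM in the Undifferentiated, 51.1, 48.3 and 47.5 in the Differentiated and 30.1, 40.4 and 40.4 in the Lysfree libraries. It was slightly lower in Lysfree than in Differentiated (log2 fold change -0.34, SE 0.12, adjusted p = 0.026), with Lysfree 1 the lowest library, a call that was lost without Differentiated 1 or 2.

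Set against their promoters, the 9 genes with an ER stress element did not move as one. In Lysfree vs Differentiated, 6 of them fell (Hsp90b1, Calr, Canx, Creld2, Pdia6 and Syvn1), Derl3 rose, and Hspa5 and Dnajc3 did not pass. Of all 34 genes 18 fell there, as did 30.0% of genes of the abundance given above. In Differentiated vs Undifferentiated, 6 rose (Hspa5, Hsp90b1, Canx, Creld2, Pdia6 and Syvn1) and 3 did not pass. Of all 34 genes 21 rose there, as did 43.9% of genes of that abundance. Whether the 9 genes differ from the rest of the list was not tested. Pdia4, Xbp1, Dnajb9 and Ero1l, which were among the genes with the largest log2 fold changes, had no match of any of the 4 motifs in their windows, which says only that these letters are not there.

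The other genes of the pathway were taken from lists written with earlier results of these data known. Their counts stand against 43.9% of genes of the abundance given above rising and 39.1% falling in Differentiated, 38.2% and 26.2% in Lysfree vs Undifferentiated, and 39.6% and 30.0% in Lysfree vs Differentiated, and several of the lists lie near these shares. In the PERK arm, which holds ATF4 and its targets, 8 of 11 genes rose and 2 fell in Differentiated, 9 passed in Lysfree vs Undifferentiated, all higher, and 8 rose and 2 fell in Lysfree vs Differentiated. Atf4, the factor that this arm translates, was at 226, 247 and 237 FPKM in Undifferentiated, 302, 302 and 317 in Differentiated and 174, 244 and 244 in Lysfree libraries, lower in Lysfree than in Differentiated (log2 fold change -0.41, SE 0.11, adjusted p = 0.0037), with Lysfree 1 the lowest library. Ddit3, the pro-apoptotic factor CHOP, was at 77.6, 88.1 and 82 FPKM in the Undifferentiated, 60.03, 55.2 and 52.1 in the Differentiated and 71, 110.0 and 108 in the Lysfree libraries. It fell in Differentiated (adjusted p = 3.6e-23) and was 1.81-fold higher in Lysfree than there (log2 fold change 0.85, SE 0.13, adjusted p = 1.4e-05), with Lysfree 1 the lowest Lysfree library, and Mars overlaps it. Trib3, which encodes a pseudokinase target of ATF4 and CHOP, was at 75.5, 79 and 74.7 FPKM in the Undifferentiated, 99.1, 97.1 and 95.7 in the Differentiated and 91.6, 111 and 116 in the Lysfree libraries, and the last 2 groups overlapped (adjusted p = 0.13). Atf3, a stress-induced factor, was at 0.915, 0.614 and 1.25 FPKM in Undifferentiated libraries and rose 26.2-fold in Differentiated and 33.3-fold in Lysfree (adjusted p = 2.7e-21 for the latter). Ppp1r15a, or GADD34, which undoes the phosphorylation of eIF2α, rose 2.28-fold in Lysfree vs Differentiated, to 50.5, 79.1 and 78.4 FPKM. Chac1, which degrades glutathione, was 4.55-fold higher in Lysfree than in Undifferentiated, and Stc2 3.73-fold higher in Lysfree than in Differentiated, at 2.79, 2.97 and 3.37 FPKM. Nupr1, a stress-induced nuclear protein, was at 15.1, 17.6 and 15.6 FPKM in the Undifferentiated, 61.5, 56.7 and 60.4 in the Differentiated and 13.7, 32.6 and 34.8 in the Lysfree libraries. It rose 3.62-fold in Differentiated and was 2.1-fold lower in Lysfree than there (log2 fold change -1.07, SE 0.20, adjusted p = 2.0e-04), the only DEG of the list that was lower in any comparison. For Nupr1 Lysfree 1 was far below Lysfree 2 and 3, which lay nearer to Differentiated. For the genes of this list, calls without Lysfree 1 were not examined. These genes are also targets of the integrated stress response, and which kinase acted was not measured.

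Of 8 other ER stress regulators with reads, 1 rose and 3 fell in Differentiated, 1 rose and 4 fell in Lysfree vs Undifferentiated, and 2 rose and 3 fell in Lysfree vs Differentiated. Creb3l1, or OASIS, a relative of ATF6 in collagen-secreting cells, was at 121, 114 and 120.1 FPKM in Undifferentiated, 23.4, 24.2 and 23.5 in Differentiated and 47.9, 55.8 and 56.9 in Lysfree libraries. It fell 5.09-fold in Differentiated and was 2.37-fold higher in Lysfree than there (log2 fold change 1.24, SE 0.10, adjusted p = 1.0e-09). Tmbim6, or BAX inhibitor 1, had the order of Pdia4, at 148, 155 and 156 FPKM in the Undifferentiated, 272, 275 and 274 in the Differentiated and 77.9, 75 and 75.4 in the Lysfree libraries (log2 fold change -1.78, SE 0.076, adjusted p = 6.7e-14 between Lysfree and Differentiated). Wfs1, an ER membrane protein, rose 2.07-fold in Lysfree vs Undifferentiated.

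Of 13 other disulfide enzymes with reads, 4 rose and 7 fell in Differentiated, 5 and 3 in Lysfree vs Undifferentiated, and 6 and 3 in Lysfree vs Differentiated. Qsox1, a secreted sulfhydryl oxidase, rose 3.11-fold in Differentiated to 90.9, 92.3 and 92 FPKM and was 2.26-fold lower in Lysfree. Pdia5 fell 2.88-fold in Differentiated, Prdx4, the ER peroxiredoxin, 1.94-fold in Lysfree vs Undifferentiated, and Tmx3 was 2.01-fold higher in Lysfree than in Differentiated. Of 8 other BiP partners, 3 rose and 3 fell in Differentiated, Dnajc1 alone passed, lower, in Lysfree vs Undifferentiated, and 1 rose and 4 fell in Lysfree vs Differentiated, with changes of at most 1.57-fold (Dnajc16). Of 19 other ER-associated degradation genes, 8 rose and 6 fell in Differentiated, 6 and 1 in Lysfree vs Undifferentiated, and 6 and 5 in Lysfree vs Differentiated. Marchf6, a ligase that clears squalene monooxygenase, rose 2.92-fold in Differentiated to 38.2, 38.4 and 36.8 FPKM. Ube2j1, an ER ubiquitin-conjugating enzyme, rose 2.34-fold in Lysfree vs Undifferentiated, and Ube2g2, another, 2.02-fold in Differentiated. Rnf5 was 2.98-fold lower and Herpud2 2.23-fold higher in Lysfree than in Differentiated. Of 11 genes of glycan processing and glycoprotein folding, 2 rose and 5 fell in Differentiated, 4 and 2 in Lysfree vs Undifferentiated, and 6 passed in Lysfree vs Differentiated, all higher, where Man1b1, a mannosidase, was 1.89-fold and Uggt2 1.84-fold higher. Erlec1 fell 1.74-fold in Differentiated, and in Lysfree vs Undifferentiated Lman1 fell 1.57-fold and Edem3 rose 1.29-fold.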

How the data were processed

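RNA was measured by paired-end sequencing of poly A libraries of 3T3-L1 cells, 3 libraries per group. The counts per gene were deposited by the authors and, per the labels, were made with HISAT2 2.0.5 and featureCounts 1.5.0-p3 (submitters' processing notes) on mm10, with an annotation and a strand setting not given in the sources used here. The FPKM deposited by the authors equal counts over the product of gene length and library total, up to a constant for each library of 0.932 to 1.037. The constant was highest in the Differentiated and lowest in the Lysfree libraries. Gene symbols, identifiers, positions and overlaps were read from the same tables. The symbol of Marchf6 is spelled there as a date and was matched by identifier, and of 2 identifiers named Ddit3 the one with reads was used.

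Each pair of groups was tested on the counts of its 6 libraries with edgeR 4.0.16 (R 4.3.3, TMM scaling, quasi-likelihood F test), keeping each gene that had reads in 1 or more of them, and adjusted by Benjamini-Hochberg over all of these. The SE is the log2 fold change divided by the square root of F. In Differentiated vs Undifferentiated the prior degrees of freedom were infinite, so its p values can be extremely small. DEGs changed 2-fold or more, in either direction, at an adjusted p under 0.05. An exact permutation test of 3 against 3 cannot go below p = 0.1 and was not used. Alternatives were DESeq2 1.42.0, median-of-ratios factors, library size alone, filterByExpr, a minimum of 10 counts per library, a single fit of all 9 libraries, a replicate block, a robust fit, limma 3.58.1 on log2(FPKM + 1) and log2(FPKM + 0.1), and leaving out each library. On simulated data for Lysfree vs Differentiated (23026 genes, 200 changed), the changed genes recovered were 196 by edgeR, 193 by DESeq2 and 83 by limma, and the false calls 4, 10 and 14.

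The 34 genes and all other gene lists were chosen with earlier results of these data known. The text names all 34, Atf4, Ddit3 and Trib3, and from each other pathway list the 2 genes per comparison with the largest log2 fold change in size among those with an adjusted p under 0.05, a mean of at least 1 CPM in a group and no overlap between groups. Tables and motif searches used Python 3.11.15 and pandas 2.3.3. Protein sequences were not analysed here.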

Additional observations from a re-analysis of the deposited data

How the results depend on the processing

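Of 102 pairs of a gene and a comparison, 82 passed the test, and 67 of these 82 kept their direction and their side of the threshold under all alternatives run. Leaving out each library gave 18 to 21 genes higher and 6 to 8 lower in Differentiated vs Undifferentiated with 4 DEGs throughout, 11 to 12 higher, 13 to 15 lower and 5 to 8 DEGs in Lysfree vs Undifferentiated, and 5 to 10 higher, 16 to 20 lower and 11 to 13 DEGs in Lysfree vs Differentiated. The count of 5 DEGs came without Lysfree 1 and that of 5 higher genes without Differentiated 3. Limma on log2(FPKM + 1) also gave 5 DEGs in Lysfree vs Undifferentiated. The calls lost most often were Sel1l in Differentiated vs Undifferentiated (12 alternatives), Dnajb9 in Lysfree vs Undifferentiated (10) and Edem1 in Lysfree vs Differentiated (10). Same-numbered libraries of different groups deviated with correlations of -0.084 to 0.115, so the numbers were not taken to pair the libraries. With the replicate block, 20 genes were higher, 7 lower and 4 DEGs in Differentiated vs Undifferentiated, 12, 14 and 7 in Lysfree vs Undifferentiated, and 7, 17 and 12 in Lysfree vs Differentiated. The 24 values that changed sign all belonged to differences that had not passed the test, and the cause was not tested. In Lysfree vs Undifferentiated, Dnajb11 was at -0.018 with DESeq2 and with median-of-ratios factors, -0.036 with filterByExpr, -0.059 with at least 10 counts, -0.019 with all 9 libraries, -0.016 with the replicate block, -0.062 and -0.064 with limma, and from -0.12 (without Lysfree 2) to 0.13 (without Lysfree 1) with a library left out. There Erp44 was at -0.0022 with filterByExpr, -0.027 with at least 10 counts, -0.027 and -0.028 with limma, and from -0.15 (without Lysfree 1) to 0.13 (without Lysfree 3) with a library left out. In Differentiated vs Undifferentiated, Mbtps2 was at -0.029 by library size alone, -0.0039 with at least 10 counts and from -0.016 to 0.037 with a library left out. Over the same leave-outs, Dnajc3 reached 0.0028, Derl3 ran from -0.18 to 1.25 and Sec61b from -0.019 to 0.15. Os9 ran from -0.27 to 0.11, the latter without Lysfree 1, in Lysfree vs Differentiated. Depth limits Derl3, with 1 to 13 reads in a library.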

Other observations

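Some of the genes for entry into the ER were lower without lysine. The counts in this section stand against shares of genes of the abundance given above. Of those, 43.9% rose and 39.1% fell in Differentiated, 38.2% and 26.2% in Lysfree vs Undifferentiated, and 39.6% and 30.0% in Lysfree vs Differentiated. Several of the counts lie near these shares. Of 22 genes of translocation and signal peptide cleavage, 10 rose and 7 fell in Differentiated vs Undifferentiated, 9 rose and 10 fell in Lysfree vs Undifferentiated, and 4 rose and 11 fell in Lysfree vs Differentiated. Ssr4, a subunit of the translocon-associated complex, was at 26.6, 32 and 27.2 FPKM in Undifferentiated, 39.4, 35.7 and 38.4 in Differentiated and 9.65, 12.8 and 13.1 in Lysfree libraries, 3.05-fold lower in Lysfree than in Differentiated (log2 fold change -1.61, SE 0.12, adjusted p = 2.6e-10). The signal recognition particle genes Srp72 and Srp14 were lower in Lysfree, Srp72 1.83-fold against Differentiated and Srp14 1.98-fold against Undifferentiated. In Differentiated, Srp19 rose 1.8-fold and Sec61a2, a channel subunit, 1.73-fold. Of 12 oligosaccharyltransferase genes, which attach glycans to nascent proteins, 4 rose and 4 fell in Differentiated vs Undifferentiated, 1 rose and 2 fell in Lysfree vs Undifferentiated, and 2 rose and 2 fell in Lysfree vs Differentiated. Tmem258 was at 31.7, 33.7 and 33.1 FPKM in Differentiated and 5.83, 17 and 16.1 in Lysfree libraries, with Lysfree 1 far below the others, and Krtcap2 was 1.6-fold higher in Lysfree than in Differentiated. Tusc3 fell 1.5-fold and Ddost 1.47-fold in Differentiated.

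Most of the collagen folding genes fell in both adipogenic media, beside 39.1% and 26.2% of genes of the abundance given above. Of 13, 10 fell and 2 rose in Differentiated vs Undifferentiated, 9 fell and 1 rose in Lysfree vs Undifferentiated, and 3 fell and 3 rose in Lysfree vs Differentiated. P4ha3, a collagen prolyl hydroxylase subunit that pairs with P4hb, was at 12.1, 11.3 and 11.4 FPKM in Undifferentiated, 0.371, 0.360 and 0.375 in Differentiated and 2.99, 4.03 and 3.91 in Lysfree libraries, so that P4hb was at its highest where P4ha3 was at its lowest. P3h3 fell 3.18-fold in Differentiated, and Fkbp14, a proline isomerase, 5.49-fold in Lysfree vs Undifferentiated. All 3 KDEL receptors, which return ER proteins from the Golgi, fell in both adipogenic media. Kdelr3 was at 94.3, 98.6 and 102 FPKM in Undifferentiated, 48.5, 46.2 and 47.9 in Differentiated and 51, 42.3 and 39.5 in Lysfree libraries. Kdelr1 fell 1.78-fold in Differentiated and Kdelr2 1.83-fold in Lysfree. The summed fibroblast markers given above were also lower in both adipogenic media than in Undifferentiated. They were higher in Lysfree than in Differentiated, where all 3 KDEL receptors did not pass. The part of these markers in the changes of both lists was not tested.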
